A study of Mus musculus with 9 samples.

Results

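Annexins are cytosolic proteins that bind phosphatidylserine and other acidic phospholipids when calcium rises, through a conserved core of repeated helical domains. They gather at sites of plasma membrane injury, where calcium enters, and individual members aggregate membranes, bend them, or link them to actin and to S100 proteins. Annexin V, the product of Anxa5, is also the purified reagent used to stain cells that expose phosphatidylserine, and staining with the reagent does not measure the Anxa5 transcript. The annexin genes described here were Anxa1, Anxa2, Anxa3, Anxa4, Anxa5, Anxa6, Anxa7, Anxa8 and Anxa11, chosen by family name and not by their values. Each gene was represented by the probe set with 1 gene symbol that had the highest mean over all arrays, and 8 of the 9 genes had such a probe set, of 22180 genes in all. Each of the 8 had a single 1-symbol probe set. Anxa11 was carried only by 3 probe sets annotated to several symbols each, at most 3, so its values were not analysed here.

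RNA was hybridised to 9 one-colour Affymetrix arrays and came from hMLKL1-181-2Fv-NIH3T3 cells, a mouse fibroblast line that carries part of human MLKL, the membrane-permeabilizing effector of necroptosis, fused to Fv domains. Washout arrays (n = 3) came from cells given 50 nM B/B, a compound that brings Fv domains together, for 1 h, sorted as annexin V-positive, and then kept in washout for 6 h, given in the series design as 3000 nM of an unnamed agent. B/B 1 h arrays (n = 3) came from annexin V-positive cells sorted after 1 h of B/B, and control arrays (n = 3) from cells of the same line labelled as control treatment. All 3 groups carried the fusion protein. Whether the control cells went through a sort, and at what time they were taken, is not in the labels. Against control, the effects of B/B, of the sort, of harvest time and, for washout arrays, of the washout agent cannot be told apart. Nor do the labels say whether the line is 1 clone or whether the arrays of a group came from separate cultures, and p-values then measure only the spread between these arrays, which may be technical.

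Values are on a log2 scale, with base 2 inferred from their range. Array medians lay between 4.60 and 4.68. All 8 annexin genes had means above the lowest 30% of genes, a range in which signal was not told apart from background. A mean above that range does not by itself show expression. All 8 fibroblast markers examined were also above that range, whereas 5 of 8 leukocyte markers, the pan-leukocyte gene Ptprc among them, were within it, as were 1 of 5 epithelial and 1 of 5 endothelial markers. With 3 arrays a group, precision is limited by their number, and fewer cells of a type and less RNA per cell cannot be told apart in these bulk samples.

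The 250 bases before the gene start are shown for Anxa8 and Anxa7, the members that rose after washout, and for Anxa2 and Anxa1, members that did not pass the test in any comparison. They are RefSeq sequences of mouse build GRCm38.p6, read 5′ to 3′ on the gene's strand. The windows are chr14:34085729-34085978 on the plus strand for Anxa8, chr14:20479942-20480191 on the minus strand for the downstream of 2 Anxa7 starts, chr9:69453433-69453682 on the plus strand for Anxa2 and chr19:20390672-20390921 on the minus strand for Anxa1. Capitals mark matches on either strand to 4 motifs, TGANTCA of AP-1, GGAATG of TEAD, the GC box GGGCGG and the TATA box TATAAA.
Anxa8: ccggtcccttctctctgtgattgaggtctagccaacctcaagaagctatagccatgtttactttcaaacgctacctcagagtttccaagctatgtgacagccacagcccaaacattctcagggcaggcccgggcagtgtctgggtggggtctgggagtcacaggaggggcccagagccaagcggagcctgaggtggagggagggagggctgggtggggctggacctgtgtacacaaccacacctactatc
Anxa7: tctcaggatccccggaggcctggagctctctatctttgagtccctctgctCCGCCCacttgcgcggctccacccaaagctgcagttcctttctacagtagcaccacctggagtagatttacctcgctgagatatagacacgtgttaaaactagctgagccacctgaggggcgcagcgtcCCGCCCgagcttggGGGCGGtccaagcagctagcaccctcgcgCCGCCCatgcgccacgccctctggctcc
Anxa2: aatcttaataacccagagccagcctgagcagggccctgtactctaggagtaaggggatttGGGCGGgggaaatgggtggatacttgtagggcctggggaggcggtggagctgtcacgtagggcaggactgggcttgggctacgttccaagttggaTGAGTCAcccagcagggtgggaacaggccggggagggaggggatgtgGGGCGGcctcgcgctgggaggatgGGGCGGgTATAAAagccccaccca
Anxa1: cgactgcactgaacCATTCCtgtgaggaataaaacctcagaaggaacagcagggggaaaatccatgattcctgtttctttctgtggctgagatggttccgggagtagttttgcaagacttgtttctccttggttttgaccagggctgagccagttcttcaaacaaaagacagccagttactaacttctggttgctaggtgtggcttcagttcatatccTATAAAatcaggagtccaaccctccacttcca

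The Anxa8 window held 0 matches to any of the 4 motifs. So did the windows of Anxa5 and of both Anxa4 starts, not printed, members that did not pass the test in any comparison. The Anxa7 window held 4 GC boxes and no other match. The window of its upstream start, not printed, overlaps it and held 1 GC box, which is the first of these 4. The Anxa2 window held 1 AP-1 match, whose first base lay 95 bases before the start, 3 GC boxes and 1 TATA box, and the Anxa1 window held 1 TEAD match and 1 TATA box. Among 32851 mouse windows of the same length, 6.75% held an AP-1 match, 12.6% a TEAD match, 32.7% a GC box and 12.4% a TATA box. These matches describe letters only. The table had entries for 7 of the 9 genes, not for Anxa3 or Anxa6. Anxa7, Anxa8 and Anxa11 all lie on chromosome 14.

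Set against control, the B/B 1 h arrays show how annexin transcripts stood in phosphatidylserine-exposing cells soon after MLKL dimerization. None of the 8 annexin genes passed the threshold, an adjusted p under 0.05 in limma after Benjamini-Hochberg adjustment over all genes, where 2.89% of the 22180 genes did, 1.01% higher and 1.88% lower. At an unadjusted p under 0.05, 2 of the 8 did, Anxa3 and Anxa7, as did 18.5% of all genes. The median log2 difference of the 8 genes was -0.034, against 0.0042 over all genes.

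Anxa3, a phospholipid-binding annexin studied as an inhibitor of phospholipase A2, came closest to the threshold. Its log2 level was 11.02, 10.97 and 10.96 on the B/B 1 h arrays, against 11.12, 11.13 and 11.13 on the control arrays. The groups did not overlap, with every B/B 1 h array below every control array, and the log2 difference was -0.14 ± 0.039 (SE; limma adjusted p 0.0851). The adjusted p was 0.0491 when the lowest 30% of genes by mean were left out and 0.00439 with a mean-variance trend, so that the call depended on these settings.

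Anxa7, also called synexin, which aggregates membranes in the presence of calcium, was the other member whose arrays did not overlap. It read 8.93, 9.10 and 9.05 on B/B 1 h arrays, against 9.16, 9.20 and 9.21 on control arrays (log2). Its difference was -0.17 ± 0.057 (log2, SE; limma adjusted p 0.163). The groups did not overlap in these 2 of 8 annexin genes, and in 21.3% of all genes. Anxa8, whose human product has anticoagulant activity in test-tube assays, read 5.32, 5.49 and 5.22 on B/B 1 h arrays, against 5.44, 5.62 and 5.53 on control arrays, and these ranges overlapped (difference -0.19 ± 0.10, log2, SE; limma adjusted p 0.352).

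The remaining 5 members differed by less than 0.05 (log2) between B/B 1 h and control. For Anxa5 the 95% interval of the change ran from -5.68% to 6.05%, and for Anxa2, which pairs with S100A10 at the membrane, from -6.28% to 7.85%. For Anxa1, a ligand of formyl peptide receptors that also acts in membrane repair, it ran from -7.61% to 5.09%. The interval of Anxa6, an annexin with a duplicated core, was -7.66% to 6.87%. That of Anxa4, which self-associates on membranes and curves them in human cells, was wider, at -12.1% to 6.73%, and its lowest B/B 1 h array, at 8.65, stood apart from the others, at 8.82 and 8.85 (log2).

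**Figure D1:**
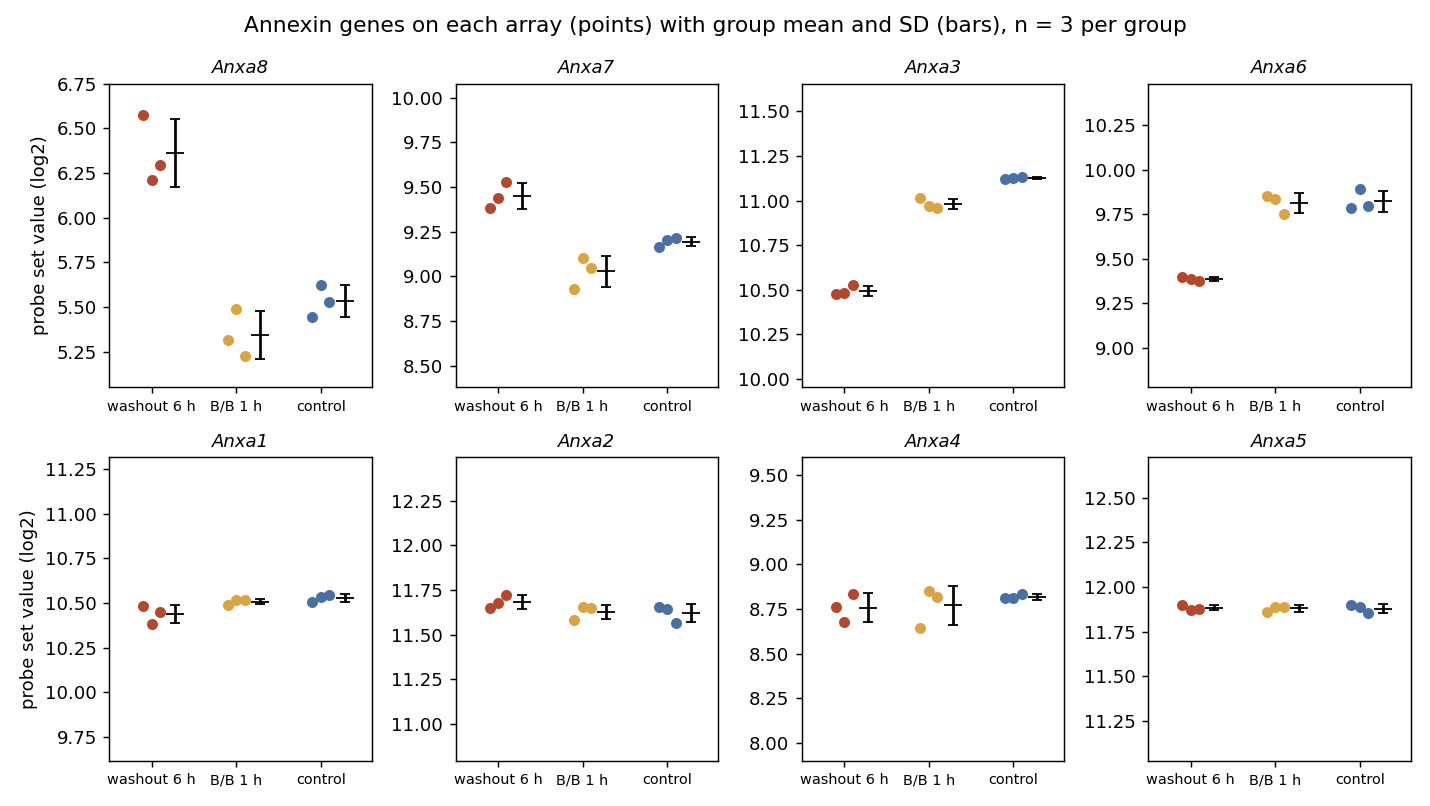
Log2 probe set values of 8 annexin genes on each of 9 arrays (points, 3 per group), with the group mean and SD as black bars; each panel spans the same log2 range and levels are not to be compared between panels. Washout arrays lie above the other 6 for Anxa8 and Anxa7 and below them for Anxa3 and Anxa6, while Anxa5 lies between 11.85 and 11.90 on every array.

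Set against control, the washout arrays show how annexin transcripts stood once the sorted, annexin V-positive cells had been kept for 6 h. Of the 8 annexin genes, 4 passed the threshold, 2 higher (Anxa8 and Anxa7) and 2 lower (Anxa3 and Anxa6). Over all genes 26.2% passed, 14.5% higher and 11.7% lower. The median absolute log2 difference was 0.17 over the 8 genes, against 0.094 over all genes, and the signed medians were -0.027 over the 8 genes and 0.00057 over all genes. The arrays of both groups did not overlap in 5 of the 8 genes, where 38.0% of all genes had this property, the fifth being Anxa1.

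Anxa8 had the largest change among the 8. Its log2 level was 6.58, 6.21 and 6.29 on washout arrays, against 5.44, 5.62 and 5.53 on control arrays. All washout arrays were above all control arrays, and the washout group was the more spread, with an SD of 0.19 against 0.090 in control. Anxa8 was 1.78-fold higher after washout (log2 difference 0.83 ± 0.10, SE; limma adjusted p 0.000202). This rise started from the lowest control probe set value among the 8 members, although such values do not rank expression between genes. The control mean of Anxa8 was 5.53, where array medians lay between 4.60 and 4.68 (log2). How much of its control signal was background was not tested.

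Anxa7 read 9.38, 9.44 and 9.53 on washout arrays, against 9.16, 9.20 and 9.21 on control arrays (log2). Every washout array was above every control array, and the rise was 1.19-fold, with a 95% interval of 1.09-fold to 1.30-fold (limma adjusted p 0.00732). It was the smallest of the 4 calls.

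Anxa3 read 10.48, 10.48 and 10.53 on washout arrays, against 11.12, 11.13 and 11.13 on control arrays (log2). The groups were far apart relative to their SDs, 0.028 on washout arrays and 0.0072 on control arrays. Anxa3 fell by 35.5% after washout, with a 95% interval from -39.2% to -31.5% (log2 difference -0.63 ± 0.039, SE; limma adjusted p 3.01e-06).

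Anxa6, which binds membranes together with actin and is known to join the repair cap in muscle, read 9.40, 9.39 and 9.37 on washout arrays, against 9.78, 9.89 and 9.80 on control arrays (log2). All washout arrays were lower than all control arrays. It fell by 26.1%, with a 95% interval from -31.3% to -20.5% (log2 difference -0.44 ± 0.047, SE; limma adjusted p 9.32e-05).

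The other 4 annexin genes did not pass the test after washout. Anxa5 read 11.90, 11.87 and 11.88 on washout arrays, against 11.90, 11.89 and 11.85 on control arrays (log2). The groups overlapped, and the 95% interval of its change was -5.38% to 6.39%. Anxa2 differed by 0.061 (log2), with an interval from -2.75% to 11.9%, and Anxa4 by -0.059, with an interval from -12.9% to 5.79%. Anxa1 read 10.48, 10.38 and 10.45 on washout arrays, against 10.50, 10.54 and 10.55 on control arrays (log2). Each washout array of Anxa1 was below each control array by a small margin, and the difference of -0.090 ± 0.041 (log2, SE) had a limma adjusted p of 0.160, or 0.0334 with a mean-variance trend.

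**Figure D2:**
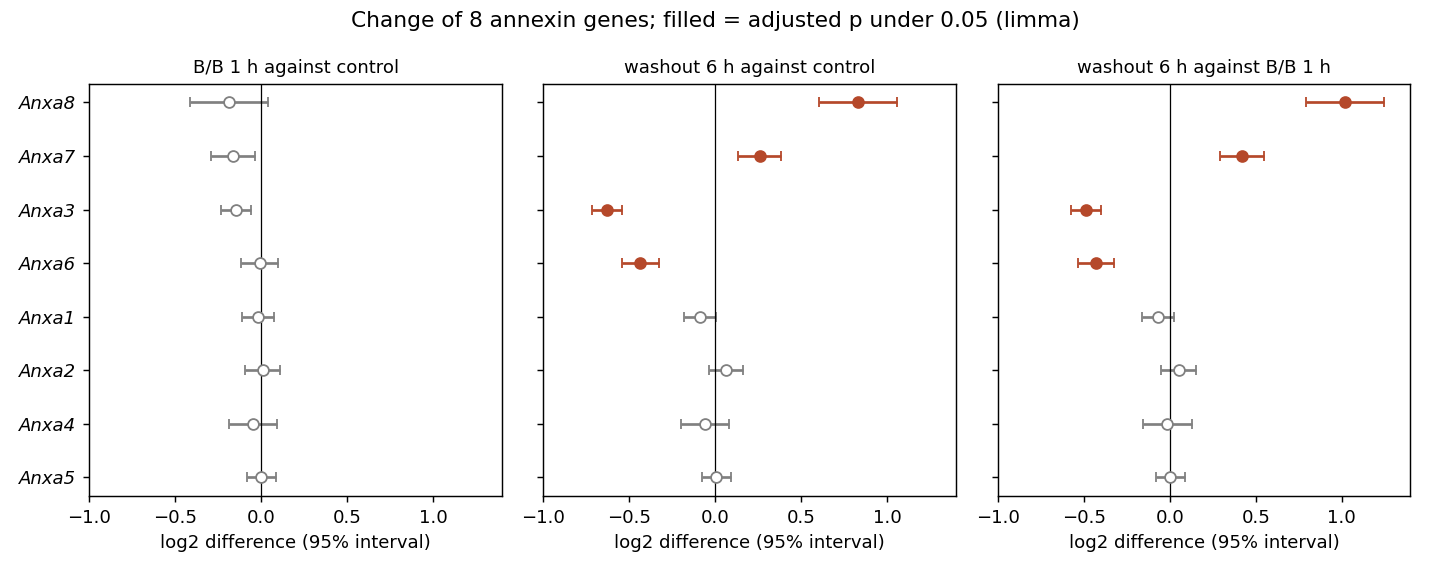
Log2 difference of 8 annexin genes with its 95% interval from limma in 3 comparisons, where filled symbols mark an adjusted p under 0.05. No symbol is filled for B/B 1 h against control, and the same 4 genes, Anxa8, Anxa7, Anxa3 and Anxa6, are filled in both comparisons of washout.

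Markers moved with the washout group as well. Of 8 fibroblast markers, 1 was higher and 5 were lower after washout than in control, where 14.5% of all genes were higher and 11.7% lower. Those with the largest differences were the PDGF receptor gene Pdgfrb at -1.36, the collagen genes Col1a2 at -0.99 and Col1a1 at -0.79, and Pdgfra, another PDGF receptor gene, which was the higher one at 0.68 (log2). Their summed linear level was 15403 to 15481 on washout arrays, against 16718 to 17124 on control arrays. Of 8 leukocyte markers, 1 was higher, the lipopolysaccharide co-receptor gene Cd14 at 1.47 (log2), and 2 were lower, the lysozyme gene Lyz2 at -0.30 and the pan-leukocyte gene Ptprc at -0.19. Their summed linear level was 907 to 939 on washout arrays, against 520 to 556 on control arrays, while Ptprc had a mean of 3.20 after washout and 3.39 in control (log2). At B/B 1 h, 0 of 8 fibroblast markers passed and 3 of 8 leukocyte markers were higher than control. Over all genes 1.01% were higher and 1.88% lower. The 3 markers were Cd14 at 0.61, the lysosomal glycoprotein gene Cd68 at 0.51 and the macrophage receptor gene Adgre1 at 0.30 (log2). The mean of Adgre1 was in the lowest 30% of genes. The summed leukocyte level was 710 to 786 on B/B 1 h arrays, between those of the other groups. This sum rests mainly on Cd14 and Cd68, as 5 of the 8 markers had means in the lowest 30% of genes. Cd14 means were 9.30 after washout, 8.44 at B/B 1 h and 7.83 in control (log2). Those of Cd68 were 7.71, 8.30 and 7.78. Between washout and B/B 1 h, 1 leukocyte marker was higher and 1 lower, and 1 fibroblast marker was higher and 5 lower. In that comparison 16.6% of all genes were higher and 12.0% lower. After washout, relative to control, of 5 epithelial markers 0 were higher and 1 lower, and of 5 endothelial markers 1 was higher and 0 lower. The part of these shifts in the annexin values was not tested.

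The comparison of washout with B/B 1 h sets groups against each other that were both sorted. It shares the B/B 1 h and washout arrays with the comparisons above. Its groups still differ in the 6 h after the sort, in the washout agent and in harvest time, and these effects cannot be told apart. Of the 8 annexin genes 4 passed, 2 higher and 2 lower, where 28.6% of all genes passed, 16.6% higher and 12.0% lower. They were the genes called against control. Arrays did not overlap in 5 of 8, against 39.6% of all genes.

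Anxa8 was 2.03-fold higher on washout arrays than on B/B 1 h arrays, with means of 6.36 ± 0.19 and 5.34 ± 0.13 (log2, SD, n = 3 each; limma adjusted p 4.92e-05). Anxa7 was 1.34-fold higher, at 9.45 ± 0.073 on washout arrays and 9.03 ± 0.088 on B/B 1 h arrays (log2, SD, n = 3 each; limma adjusted p 0.000339). For both genes the rise exceeded the one against control, since their B/B 1 h means lay below the control means. Anxa3 fell by 28.7% between B/B 1 h and washout (log2 difference -0.49 ± 0.039, SE; limma adjusted p 1.23e-05). Anxa6 fell by 25.6% (log2 difference -0.43 ± 0.047, SE; limma adjusted p 9.45e-05), close to its value against control, since its B/B 1 h mean of 9.81 was near the control mean of 9.82. The means of Anxa3 thus ran 10.50 after washout, 10.98 at B/B 1 h and 11.13 in control (log2). For Anxa1, Anxa2, Anxa4 and Anxa5 the differences between washout and B/B 1 h were -0.069, 0.053, -0.013 and 0.0047 (log2), and none passed the test.

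Several annexins work in pairs with S100 proteins, small calcium-binding dimers. At B/B 1 h, 0 of 14 S100 genes passed the threshold, against 2.89% of all genes, and 2 had an unadjusted p under 0.05 in limma, against 18.5% of all genes. After washout 1 was higher and 3 were lower than control, where 14.5% of all genes were higher and 11.7% lower, so that the count was near that of all genes. The median log2 difference was -0.098, against 0.00057 over all genes. S100a11, which encodes the partner of annexin A1, fell to 11.02, 10.98 and 11.04 on washout arrays, against 11.49, 11.32 and 11.43 on control arrays (log2). The groups did not overlap, and the difference was -0.40 ± 0.050 (log2, SE; limma adjusted p 0.000232).

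S100a10 encodes the partner of annexin A2 and is described here for that role, although it did not pass the test. It read 12.29, 12.32 and 12.26 on washout arrays, against 12.29, 12.27 and 12.29 on control arrays (log2). The groups overlapped, and the 95% interval of the difference ran from -0.084 to 0.093 (log2). S100a6, which encodes a partner of annexins A2 and A11, fell by 0.18, and S100a4, which encodes a motility-related S100 protein, fell by 0.29 (log2; limma adjusted p 0.0148 and 0.00152). S100a14 rose by 0.34 (log2; limma adjusted p 0.00432).

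A list of membrane repair genes and annexin partners was chosen for this report, and the link of each to annexins was not tested. Of its 12 measured genes, 0 passed the threshold at B/B 1 h, against 2.89% of all genes. An unadjusted p under 0.05 in limma was reached by 1, against 18.5% of all genes. After washout 2 were higher and 5 were lower than control, where 14.5% of all genes were higher and 11.7% lower. The median log2 difference was -0.13, against 0.00057 over all genes. The largest differences belonged to Smpd1, the lysosomal acid sphingomyelinase, at -0.48, Ahnak2, a giant scaffold related to AHNAK, at -0.35, Pef1, a penta-EF-hand protein, at -0.32, and Dysf, dysferlin, a calcium sensor of membrane resealing, at -0.27 (log2; limma adjusted p 0.000249 to 0.00581). Ahnak itself, a scaffold that binds the complex of annexin A2 with S100A10, was higher by 0.23 (log2; limma adjusted p 0.0415).

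Sri and Pdcd6 encode penta-EF-hand proteins known to bind annexins A7 and A11, and were named after their values were seen. Sri, sorcin, fell by 0.21 after washout and Pdcd6, also called ALG-2, rose by 0.20 (log2; limma adjusted p 0.00598 and 0.00425). Pdcd6 read 9.25, 9.19 and 9.19 on washout arrays, against 8.97, 9.04 and 9.02 on control arrays (log2). Pef1, whose product forms dimers with ALG-2, read 7.48, 7.48 and 7.53 on washout arrays, against 7.74, 7.76 and 7.96 on control arrays (log2). The groups did not overlap for either gene, and the directions were opposite.

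**Figure D3:**
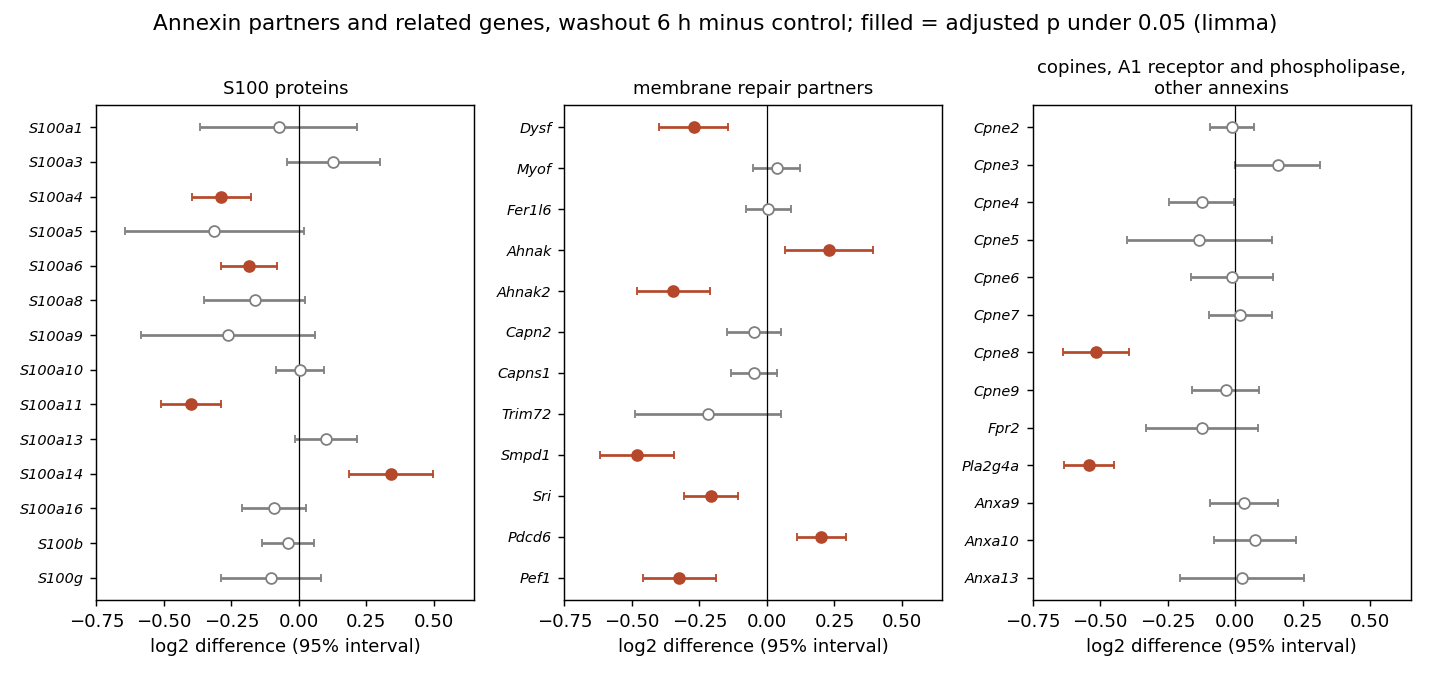
Log2 difference between washout and control with its 95% interval from limma for S100 genes, membrane repair partners, copines, the annexin A1 receptor and phospholipase genes and other annexins, where filled symbols mark an adjusted p under 0.05. S100a11 lies at -0.40 and S100a10 at 0.0047.

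Copines, another family of calcium-dependent phospholipid-binding proteins, had 0 of 8 genes past the threshold at B/B 1 h, against 2.89% of all genes, and 1 at an unadjusted p under 0.05 in limma, against 18.5%. After washout 0 were higher and 1 was lower, where 26.2% of all genes passed. That gene was Cpne8, at -0.52 (log2; limma adjusted p 8.15e-05). Pla2g4a, the cytosolic phospholipase A2 that annexin A1 is known to restrain, fell to 10.47, 10.45 and 10.39 on washout arrays, against 10.94, 10.99 and 11.01 on control arrays (log2). The groups did not overlap (difference -0.54 ± 0.042, log2, SE; limma adjusted p 1.23e-05). Fpr2, a formyl peptide receptor gene, had a mean in the lowest 30% of genes. The annexin genes Anxa9, Anxa10 and Anxa13 did not pass the test in any of the 3 comparisons, and the means of Anxa10 and Anxa13 were also in the lowest 30%.

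Genes nearest in pattern were sought for Anxa8 and Anxa3, the members with the largest differences between washout and control, as the smallest root mean square difference over the 9 arrays after subtraction of each gene's control mean. Nearest to Anxa8 were Ppard, a lipid-sensing nuclear receptor gene, at 0.10, Tmem179, a transmembrane protein gene, at 0.11 and Nnmt, nicotinamide N-methyltransferase, at 0.12 (log2). Like Anxa8 they stood higher after washout than in control, by 0.78, 0.93 and 0.72 (log2). Nearest to Anxa3 were Mxra8, a matrix-remodelling-associated surface protein gene, at 0.027, Acta2, smooth muscle actin, at 0.030 and Msln, mesothelin, at 0.042 (log2). They differed from control by -0.13, -0.15 and -0.14 at B/B 1 h and by -0.60, -0.67 and -0.59 after washout (log2). These genes were picked for likeness, so their values are a description.

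**Figure D4:**
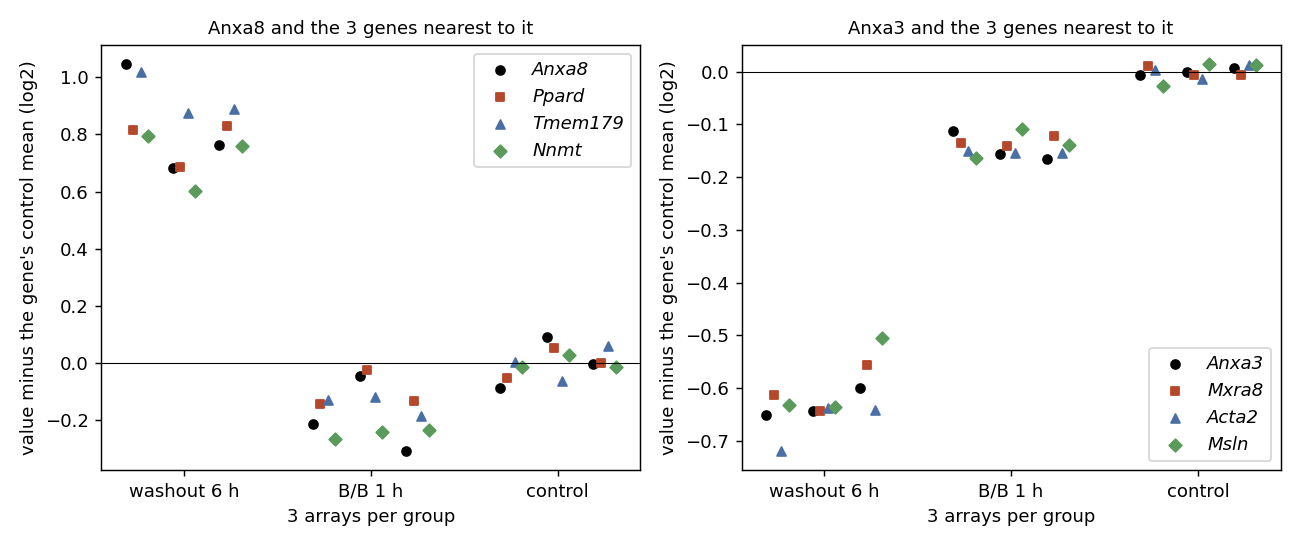
Value minus the gene's control mean (log2) on each of 9 arrays for Anxa8 and the 3 genes nearest to it (left) and Anxa3 and the 3 genes nearest to it (right), with washout, B/B 1 h and control arrays from left to right. Anxa8 lies between 0.68 and 1.05 on washout arrays, and Anxa3 between -0.65 and -0.60.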

How the data were processed

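Total RNA was extracted with Trizol and biotinylated cRNA was hybridised to 1-colour arrays, per the labels' protocols. Values as deposited were log2 summaries per probe set, with array medians between 4.60 and 4.68. The submitters' processing notes name Partek 6.6. The methods of summary and normalization are not given in the sources used here, no detection calls were used, and an annotation table supplied with the platform named the probe sets.

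Among 41345 probe sets, 1 gene symbol was given for 23521, several for 1814 and none for 16010. The probe set with the highest mean stood for its gene. The means of 3 groups were fitted jointly on 9 arrays for each of 22180 genes with limma 3.58.1 in R 4.3.3, with moderated tests and Benjamini-Hochberg adjustment within each comparison. Intervals cover 95%. The code was tested on simulated data. The members, partner lists and markers were chosen with earlier results of these data known. Beside the annexin genes, text names up to 4 genes of each list by largest difference past the threshold. Exceptions were S100a10, Ahnak, Sri, Pdcd6, Fpr2 and the other annexin genes. Promoter sequences and names came from RefSeq tables of GRCm38.p6. Alternatives were quantile normalization, centred medians, a filter on low values, averaged probe sets, a variance trend, only 2 groups fitted, and each array left out.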

Additional observations from a re-analysis of the deposited data

Results flagged for a closer look

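For 4 annexin genes the change against control differed between B/B 1 h and washout, as tested by the limma comparison of washout with B/B 1 h, in which the shared control arrays cancel. The difference between the changes was 1.02 (log2) for Anxa8 and 0.42 for Anxa7, which stood below control at B/B 1 h without passing the test and above it after washout. It was -0.49 for Anxa3 and -0.43 for Anxa6.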

How the results depend on the processing

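The calls of Anxa8, Anxa7, Anxa3 and Anxa6 in both washout comparisons held under all 15 alternatives for each, with limma adjusted p up to 0.0304, for Anxa7 against control. Leaving out single arrays moved the log2 difference from control between 0.72 and 0.90 for Anxa8, 0.22 and 0.29 for Anxa7, -0.65 and -0.62 for Anxa3, and -0.46 and -0.40 for Anxa6. At B/B 1 h the count of annexin genes past the threshold was 1, Anxa3, with the lowest 30% of genes left out (fewer genes tested) and 1, again Anxa3, with a variance trend (limma adjusted p 0.0491 and 0.00439; 0.00439 to 0.206 over its alternatives). The cause under the variance trend was not tested. Without any single array that count was 0, and in both washout comparisons it was 4.

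Some differences that did not pass the test and lay near 0 changed sign. At B/B 1 h against control, quantile normalization gave -0.015 for Anxa2, -0.013 for Anxa5 and 0.0061 for Anxa6, and centred medians gave -0.0079 for Anxa2 and -0.016 for Anxa5 (log2). Single arrays left out moved that comparison from -0.021 to 0.030 for Anxa2, -0.087 to 0.016 for Anxa4, -0.014 to 0.011 for Anxa5 and -0.030 to 0.024 for Anxa6. For washout against control they moved Anxa5 from -0.0090 to 0.013. Between washout and B/B 1 h they moved Anxa4 from -0.075 to 0.028 and Anxa5 from -0.0057 to 0.0100, and centred medians gave 0.026 for Anxa4. No paired analysis was possible because the labels give the arrays no replicate numbers shared between groups.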
